A study of Mus musculus with 12 samples.

Results

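Ribosome biogenesis and nucleolar genes were described by the amount of RNA polymerase II (Pol II) on them in the mouse duodenum. The members were the genes whose symbols begin with Nop, Nol, Utp, Rrp, Gnl or Ddx and a digit or with Polr1, together with Ncl, Npm1, Fbl, Dkc1, Bop1, Pes1, Wdr12, Wdr43 and Wdr75. Of 92 genes with such a symbol that have a counting window in the authors' annotation, 32 are among the 6429 genes of both of the authors' deposited tables of comparisons. The other 60 are not in those tables and were not analysed here. Among them are Npm1, Fbl, Bop1, Wdr12, Wdr43 and Wdr75, so that of the 9 genes chosen by full name only Ncl, Dkc1 and Pes1 have values. The rule itself uses symbols and no measured value, though it was set with earlier results of these data known. A symbol is a loose guide to function: 21 of the 32 members act in ribosome biogenesis, 10 are DEAD-box helicases with other roles, and Nol4l is not known as a ribosome assembly factor.

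Ribosomes are made in the nucleolus, where RNA polymerase I transcribes the ribosomal RNA precursor. Small nucleolar ribonucleoproteins (snoRNPs) then modify that RNA, and a large set of assembly factors, many of them DEAD-box RNA helicases, folds and cuts it into the RNAs of the small and the large subunit. The genes of these factors are themselves transcribed by Pol II, many are targets of the transcription factor MYC, and growing and dividing cells use them most. In the intestine, dividing progenitors lie in the crypts, and their progeny move onto the villi as they differentiate into absorptive enterocytes, a step in which the transcription factors HNF4A and HNF4G act.

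Pol II was measured by chromatin immunoprecipitation and sequencing in 3 groups of duodenal epithelium from adult mice, with 3 Pol II libraries per group and 1 input library per group (12 samples). The first 2 groups were villus and crypt of wild-type (WT) mice that received the oil and ethanol vehicle. The last was villus labelled as a knockout of both Hnf4a and Hnf4g (DKO) from mice given tamoxifen at 50 mg/kg/day for 2 days and killed 1 day later. The driver of the recombination is not given in the sources used here. WT tissue was kept in 3 mM EDTA for 35 minutes and mutant tissue for 25 minutes, and crypts were separated from villi by a 70 µm filter. Genotype, tamoxifen and EDTA time therefore cannot be told apart in the comparison of the 2 villus groups. Nothing in the labels says whether the 3 libraries of a group came from separate mice, so the tests measure only the spread between these libraries.

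The authors' deposited tables give each gene a mean signal over all libraries, in counts scaled by library, and a log2 fold change with its standard error (printed after ±) and adjusted p-value from DESeq2. The first table compared WT villus with WT crypt, the second WT villus with labelled-DKO villus, and in both a positive value means more Pol II in WT villus, as the tables' names put it. A gene is called here when its adjusted p-value is under 0.05. The means of the 3 groups were rebuilt from the mean signal and both fold changes and carry no error of their own. Levels are given in that unit, and they are not scaled to gene length, so genes are compared only between groups. Values of single libraries and their depth were not analysed here, because the columns that hold them carry no names. Members had mean signals from 54.8 to 342 with a median of 145, against 13.1 to 6634 and a median of 144 for all genes, and their median standard error was 0.14 on the log2 scale in each table.

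The libraries labelled DKO showed no loss of Pol II on the targeted genes. In the authors' deposited table Pol II was higher in them than in WT villus on Hnf4a (-0.54 ± 0.14, adjusted p = 4.84e-04, DESeq2) and on Hnf4g (-1.45 ± 0.22, adjusted p = 7.81e-10). Pol II over a whole gene does not show whether a deleted part is missing, so this is no check of the deletion. Every direction given for this group rests on its label. Enterocyte and proliferation markers moved with each comparison, and the other lists were mixed or small. All 20 enterocyte markers with values (of 22 listed) were higher in WT villus than in crypt and higher in WT villus than in labelled-DKO villus, and their summed rebuilt signal was 9403 in crypt, 24859 in WT villus and 7449 in labelled-DKO villus. Of 6 proliferation markers with values (of 20 listed), 5 were higher in crypt and 5 higher in labelled-DKO villus than in WT villus, with sums of 692, 458 and 668. The 6 stem and progenitor markers with values (of 20) summed to 2100, 1518 and 1696, the 9 secretory markers (of 12) to 2119, 3240 and 3575, and the 2 immune markers (of 14) to 184, 268 and 168. Of the stem and progenitor markers, 3 were called lower and 1 higher in WT villus than in crypt. Against labelled-DKO villus 2 of them were called each way. Secretory markers gave 2 lower and 4 higher against crypt, and 3 lower and none higher against labelled-DKO villus. None of 12 mesenchyme markers is in the tables. In these bulk samples fewer cells of a type and less Pol II per cell cannot be told apart, and the part of cell makeup in the values of the members was not tested.

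Promoter sequences were taken for the members whose values the description turns on, to show the DNA from which the Pol II signal starts. The sequences come from RefSeq (GRCm38.p6), 250 bases before and 50 after the annotated start, on the gene's own strand, and 28 of the 32 members matched. Capitals mark the E-box CACGTG, the word that MYC and its partners bind, and the GC box GGGCGG, bound by SP factors, each on either strand (a GC box on the other strand reads CCGCCC). Shown are 3 genes with more Pol II in crypt and in labelled-DKO villus (Ncl, Nop56, Gnl3), 1 called only in the crypt comparison (Nop2), and 2 with more in WT villus than under the DKO label (Dkc1, Pes1).
Ncl promoter, chr1:86359406-86359705, minus strand: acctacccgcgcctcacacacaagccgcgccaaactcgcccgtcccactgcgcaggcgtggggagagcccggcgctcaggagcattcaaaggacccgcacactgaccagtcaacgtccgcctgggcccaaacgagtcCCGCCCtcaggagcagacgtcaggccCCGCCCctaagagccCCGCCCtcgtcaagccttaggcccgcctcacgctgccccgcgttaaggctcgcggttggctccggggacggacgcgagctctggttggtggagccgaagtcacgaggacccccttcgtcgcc
Nop56 promoter, chr2:130274162-130274461, plus strand: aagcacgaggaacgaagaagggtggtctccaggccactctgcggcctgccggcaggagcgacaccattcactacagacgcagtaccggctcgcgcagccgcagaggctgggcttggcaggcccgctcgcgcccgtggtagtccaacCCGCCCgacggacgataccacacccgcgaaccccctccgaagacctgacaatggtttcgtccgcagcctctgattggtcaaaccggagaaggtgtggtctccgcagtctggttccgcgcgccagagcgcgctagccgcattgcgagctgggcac
Gnl3 promoter, chr14:31019082-31019381, minus strand: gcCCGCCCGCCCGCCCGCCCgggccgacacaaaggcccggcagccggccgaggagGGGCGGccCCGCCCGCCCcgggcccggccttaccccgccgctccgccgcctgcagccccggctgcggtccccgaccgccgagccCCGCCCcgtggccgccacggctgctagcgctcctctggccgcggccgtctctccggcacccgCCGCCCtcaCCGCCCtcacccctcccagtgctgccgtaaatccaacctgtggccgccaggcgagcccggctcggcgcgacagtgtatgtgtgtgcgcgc
Nop2 promoter, chr6:125131633-125131932, plus strand: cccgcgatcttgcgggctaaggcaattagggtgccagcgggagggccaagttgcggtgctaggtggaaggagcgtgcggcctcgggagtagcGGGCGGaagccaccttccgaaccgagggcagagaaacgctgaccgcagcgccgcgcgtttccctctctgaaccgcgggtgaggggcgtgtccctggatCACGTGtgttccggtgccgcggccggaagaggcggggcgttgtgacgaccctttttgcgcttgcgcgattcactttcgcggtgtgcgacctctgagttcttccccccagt
Dkc1 promoter, chrX:75095604-75095903, plus strand: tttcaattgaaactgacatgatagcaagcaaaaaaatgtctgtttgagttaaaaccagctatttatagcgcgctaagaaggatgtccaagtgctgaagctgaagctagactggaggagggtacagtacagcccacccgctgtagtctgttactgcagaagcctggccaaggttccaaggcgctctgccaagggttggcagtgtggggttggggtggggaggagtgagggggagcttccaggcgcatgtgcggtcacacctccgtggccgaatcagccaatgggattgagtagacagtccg
Pes1 promoter, chr11:3963725-3964024, plus strand: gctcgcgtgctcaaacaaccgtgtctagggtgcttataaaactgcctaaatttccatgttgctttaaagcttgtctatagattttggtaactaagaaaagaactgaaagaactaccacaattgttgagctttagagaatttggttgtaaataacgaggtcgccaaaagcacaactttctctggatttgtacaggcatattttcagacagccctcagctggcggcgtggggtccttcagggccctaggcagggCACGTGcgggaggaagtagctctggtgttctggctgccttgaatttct
The promoters of Nop2 and Pes1 hold an E-box, at -60 and at +2 from the start. Those of Ncl, Nop56 and Gnl3 hold none and carry GC boxes, 3 in Ncl, at -113, -87 and -72, and 1 in Nop56 at -104, whereas the Dkc1 window has neither word. In all, 5 of 28 members (17.9%) had an E-box in the window (Ddx5, Nop2, Pes1, Rrp7a and Utp14b), against 11.6% of 5172 tested genes with a promoter and 8.09% of all 27025 promoter genes. A GC box was found in 19 of 28 (67.9%), against 67.8% of tested genes and 38.2% of all. Both strands were searched, copies that overlap each other were counted, and the 2 words can share an end base. The HNF4 word CAAAGTCCA was in none of the 28 and in 0.812% of tested genes, and the long palindromic words of NRF1 and of a second CGCG-centred motif were in none, against 2.38% and 1.22%. The GC content of member promoters had a median of 60.7%, with a range of 46% to 81%, the same median as in tested genes and above the 52.7% of all promoters.

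Nucleolin (Ncl), the abundant nucleolar protein that binds ribosomal RNA and its genes, had the strongest crypt signal relative to villus among the members. Its rebuilt mean was 276 in crypt, 123 in WT villus and 234 in labelled-DKO villus, so WT villus stood apart below the other groups. Pol II on Ncl was 2.24-fold higher in crypt than in WT villus in the authors' deposited table (-1.16 ± 0.16, adjusted p = 6.33e-12, DESeq2), the 23rd lowest value of the 6429 genes. It was 1.90-fold higher in labelled-DKO villus than in WT villus (-0.92 ± 0.16, adjusted p = 3.46e-08). Labelled-DKO villus and crypt were not called different, with a log2 difference of -0.24 and a 95% interval from -0.67 to 0.20. That interval came from adding the squared standard errors of both tables, the largest error the shared WT villus libraries allow. Ncl lies on the minus strand at chr1:88241294-88256030 (mm9) and holds the snoRNA genes Snord82 and Snora75 within its span. C130036L24Rik, which is not in the tables, starts 129 bases away on the other strand, and signal shared with it was not tested.

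Polr1c, a subunit shared by RNA polymerases I and III, was the only polymerase I subunit gene among the members. Znrd1, a polymerase I subunit gene also named Polr1h and outside the symbol rule, was called in neither of the authors' deposited tables (-0.13 ± 0.16 and -0.15 ± 0.16, adjusted p = 0.572 and 0.447). Polr1c had rebuilt means of 132 in crypt, 86.9 in WT villus and 127 in labelled-DKO villus. The signal was 1.52-fold higher in crypt than in WT villus (-0.60 ± 0.20, adjusted p = 0.00822, the authors' deposited table) and 1.46-fold higher in labelled-DKO villus (-0.55 ± 0.19, adjusted p = 0.0117). Its start (chr17:46380869-46384994, minus strand, mm9) is 35 bases from that of Yipf3 on the other strand, which was called in neither of the authors' deposited tables (0.21 and 0.05, adjusted p = 0.237 and 0.789).

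The snoRNP core had values for 2 of 6 listed genes, and they went in opposite directions. Nop56, a scaffold protein of the box C/D snoRNPs that methylate ribosomal RNA, had rebuilt means of 165 in crypt, 90.5 in WT villus and 158 in labelled-DKO villus. In the authors' deposited tables it was 1.82-fold higher in crypt (-0.87 ± 0.22, adjusted p = 5.04e-04, DESeq2) and 1.74-fold higher in labelled-DKO villus (-0.80 ± 0.22, adjusted p = 8.73e-04), each against WT villus. Dkc1 encodes dyskerin, the pseudouridine synthase of the box H/ACA snoRNPs and a component of telomerase. Its rebuilt means were 116 in crypt, 177 in WT villus and 74.4 in labelled-DKO villus, so that WT villus was the highest group here and the lowest for Nop56. Pol II on Dkc1 was 1.52-fold higher in WT villus than in crypt (0.61 ± 0.18, adjusted p = 0.00427) and 2.38-fold higher than in labelled-DKO villus (1.25 ± 0.19, adjusted p = 1.99e-10) in the authors' deposited tables. Dkc1 (chrX:72341193-72355115, plus strand, mm9) runs 44 bases into the end of Mpp1 on the other strand. Mpp1, which encodes a membrane scaffold protein, had values in the same direction in the authors' deposited tables (0.73 ± 0.20, adjusted p = 0.0016, and 1.50 ± 0.20, adjusted p = 2e-12). How far the pair share reads was not tested.

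**Figure D1:**
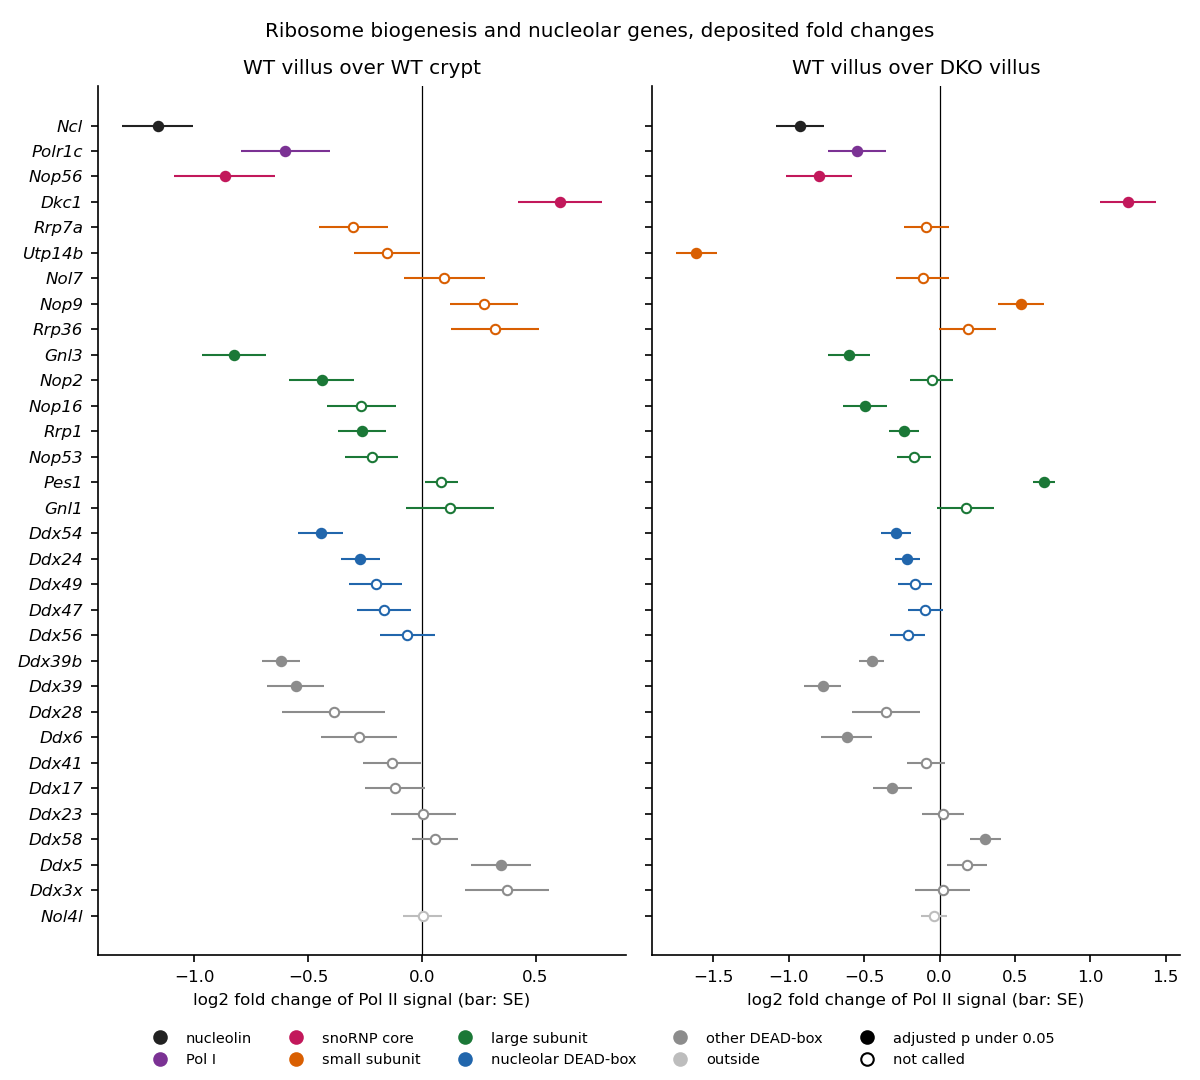
Log2 fold changes of the 32 members in the deposited comparisons of WT villus with crypt and of WT villus with labelled-DKO villus, with standard errors as bars, grouped by role and filled where called. Ncl lies lowest in the crypt comparison at -1.16, Utp14b lowest in the labelled-DKO comparison at -1.61, and Dkc1 highest in both at 0.61 and 1.25.

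Of the small subunit processome, the complex that folds and cuts the RNA of the small subunit, 5 of 24 listed genes had values and none was called between villus and crypt. Against labelled-DKO villus, 1 was lower and 1 higher in WT villus, which is 40.0% called, beside 51.9% of all genes. The lower gene was Utp14b, with rebuilt means of 88.5 in crypt, 79.6 in WT villus and 243 in labelled-DKO villus. Its signal was 3.06-fold higher in labelled-DKO villus than in WT in the authors' deposited table (-1.61 ± 0.14, adjusted p = 1.51e-30, DESeq2), the 29th lowest value of all genes. The difference from crypt was not called in the authors' deposited table (-0.15 ± 0.15, adjusted p = 0.435). Utp14b, known as a retrogene copy of Utp14a that is needed for spermatogenesis, lies wholly inside Acsl3 on the same strand, with the same start. Its 9777 bases (chr1:78654400-78664176, mm9) are part of the 5′ portion of Acsl3 (chr1:78654400-78704318), the gene of a fatty acid activating enzyme, which is not in the tables. Pol II on Utp14b and on Acsl3 cannot be told apart there.

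The member of this role with more Pol II in WT villus was Nop9, an RNA-binding protein of small subunit maturation, with means of 87.1 in crypt, 105 in WT villus and 72.3 in labelled-DKO villus. In WT villus it was 1.46-fold above labelled-DKO villus (0.54 ± 0.15, adjusted p = 0.00102, the authors' deposited table), and the crypt comparison gave 0.27 ± 0.15 (adjusted p = 0.145). Both neighbours of Nop9 (chr14:56364530-56374471, plus strand, mm9) had larger values of the same sign in the authors' deposited tables. Dhrs1, a dehydrogenase gene that starts 9 bases away on the other strand, gave 0.65 ± 0.14 and 0.86 ± 0.14 (adjusted p = 2.26e-05 and 2.72e-09). Cideb, a lipid droplet protein gene that overlaps the end of Nop9 by 1580 bases, gave 0.48 ± 0.14 and 1.05 ± 0.14 (adjusted p = 0.00262 and 2.06e-12). The remaining members of the role, Rrp7a, Nol7 and Rrp36, were called in neither of the authors' deposited tables. Rrp7a had means of 119, 96.2 and 102 in crypt, WT villus and labelled-DKO villus (-0.30 and -0.09, adjusted p = 0.103 and 0.649). Nol7 had 186, 199 and 215 (0.10 and -0.11, adjusted p = 0.704 and 0.618), and Rrp36 had 194, 242 and 213 (0.32 and 0.19, adjusted p = 0.181 and 0.421). Nol7 ends 186 bases inside Ranbp9, which was higher in crypt and in labelled-DKO villus in the authors' deposited tables (-0.42 and -0.47, adjusted p = 8.81e-07 and 1.12e-08), unlike Nol7 itself.

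Large subunit assembly had values for 7 of 17 listed genes, of which 3 were called higher in crypt than in WT villus (Gnl3, Nop2 and Rrp1) and none lower. That is 42.9% called, beside 37.4% of all genes. Gnl3, or nucleostemin, a nucleolar GTP-binding protein known from stem cells, had rebuilt means of 112 in crypt, 63.3 in WT villus and 95.9 in labelled-DKO villus. It was 1.77-fold higher in crypt (-0.83 ± 0.14, adjusted p = 7.97e-08, the authors' deposited table) and 1.51-fold higher in labelled-DKO villus (-0.60 ± 0.14, adjusted p = 8.3e-05). Gnl3 (chr14:31825619-31832317, minus strand, mm9) starts 7 bases from Pbrm1 on the other strand, which is not in the tables. Nop2, a cytosine methyltransferase of large subunit RNA, had means of 199.6, 147 and 152, so both villus groups lay below crypt. It was higher in crypt than in WT villus (-0.44 ± 0.14, adjusted p = 0.00797), and the labelled-DKO comparison gave -0.05 with an interval from -0.33 to 0.23 (adjusted p = 0.789, the authors' deposited tables). Nop2 (chr6:125081901-125094771, plus strand, mm9) was the only member called toward crypt and not toward labelled-DKO villus, and a test of the difference from crypt to labelled-DKO villus gave -0.39 (interval -0.79 to 0.01, adjusted p = 0.215).

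Rrp1, a factor of large subunit RNA cutting, was called toward both groups by small amounts in the authors' deposited tables (-0.26 ± 0.10, adjusted p = 0.0352, and -0.24 ± 0.10, adjusted p = 0.0416). Nop16 had means of 84.5, 70.3 and 99.0 and was called only toward labelled-DKO villus (-0.49 ± 0.15, adjusted p = 0.0020, the authors' deposited table), with -0.27 ± 0.15 (adjusted p = 0.157) in the crypt comparison. Pes1, the pescadillo protein of the PeBoW complex that forms with Bop1 and Wdr12, had the opposite pattern, with means of 186 in crypt, 197 in WT villus and 122 in labelled-DKO villus. Its difference from crypt was not called (0.09 ± 0.07, adjusted p = 0.377), and in WT villus it was 1.62-fold above labelled-DKO villus (0.69 ± 0.07, adjusted p = 4.57e-19, the authors' deposited tables). Labelled-DKO villus lay below crypt as well, by a rebuilt log2 difference of -0.61 ± 0.10 (adjusted p = 4.16e-07). Pes1 (chr11:3863978-3880007, plus strand, mm9) has no overlapping gene and no divergent start within 1000 bases. Nop53 (means 108.5, 93.1 and 104.6) and Gnl1 (54.8, 59.7 and 52.9) were called in neither of the authors' deposited tables, at -0.22 and 0.12 against crypt and -0.17 and 0.17 against labelled-DKO villus.

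**Figure D2:**
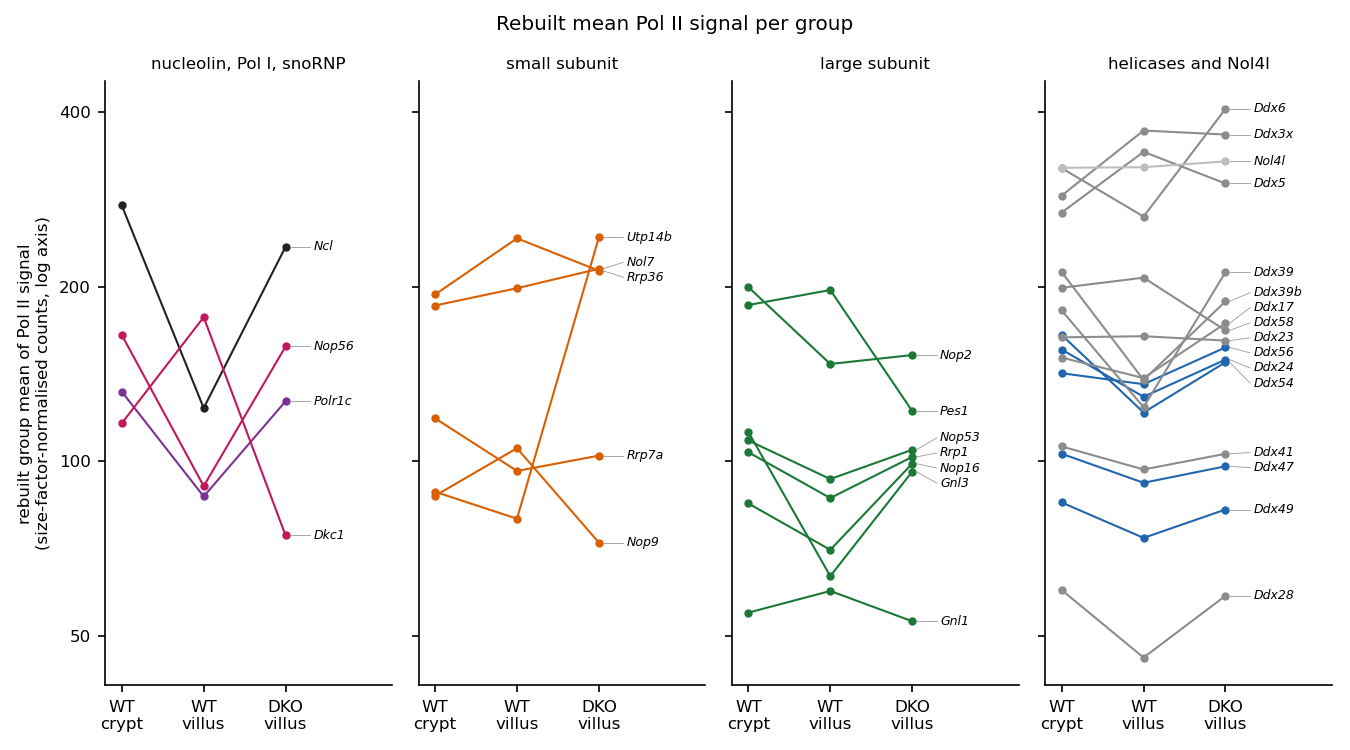
Rebuilt mean Pol II signal (scaled counts, log axis) of all 32 members, by role, in crypt, WT villus and labelled-DKO villus, 1 point per group, with no error because single libraries were not used. Ncl runs from 276 to 123 to 234, whereas Dkc1 runs from 116 to 177 to 74.4 and Utp14b reaches 243 only in labelled-DKO villus.

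DEAD-box helicases unwind RNA, and 5 of 14 listed members with a nucleolar role had values. All 5 had negative values in both of the authors' deposited tables, and 2 of them were called in each. That is 40.0% in each, beside 37.4% and 51.9% of all genes. Ddx54 had means of 165, 121 and 148 in crypt, WT villus and labelled-DKO villus (-0.44 ± 0.10, adjusted p = 6.99e-05, and -0.29 ± 0.10, adjusted p = 0.00879, the authors' deposited tables). Ddx24 had means of 156, 129 and 150 and smaller values (-0.27 ± 0.08, adjusted p = 0.00571, and -0.21 ± 0.08, adjusted p = 0.0218). Ddx49, Ddx47 and Ddx56 were not called, with log2 values from -0.20 to -0.06 against crypt and from -0.21 to -0.09 against labelled-DKO villus in the authors' deposited tables. The 258 bases that Ddx54 (chr5:121063139-121078601, plus strand, mm9) shares with Cfap73 belong to a gene with values of the same sign (-0.39 and -0.42, adjusted p = 0.0175 and 0.0046).

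The other 10 helicases act mostly outside the nucleolus, in splicing, export, decay or antiviral sensing, and moved in both directions. Against crypt, 2 were called lower and 1 higher in WT villus, and against labelled-DKO villus, 4 were called lower and 1 higher. These are 30.0% and 50.0% called, beside 37.4% and 51.9% of all genes. The paralogs Ddx39b and Ddx39 (Ddx39a), both of mRNA splicing and export, were lower in WT villus in each of the authors' deposited tables. Ddx39b had means of 212, 138 and 189 (-0.62 ± 0.08, adjusted p = 1.36e-12, and -0.45 ± 0.08, adjusted p = 1.69e-07). Ddx39 had 182, 124 and 212 (-0.55 ± 0.12, adjusted p = 6.24e-05, and -0.77 ± 0.12, adjusted p = 1.78e-09). They are close in coding sequence, which concerns both. Ddx39 also shares 3654 bases with Adgre5, whose values were -0.45 and -0.46 (adjusted p = 0.00125 and 5.13e-04), whereas Ddx39b overlaps no other gene. How far reads are shared in either way was not tested.

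Ddx6, a decay factor of processing bodies, had means of 320, 264 and 405 and was called only toward labelled-DKO villus (-0.62 ± 0.17, adjusted p = 7.35e-04, the authors' deposited table). Ddx17 was called likewise (-0.31 ± 0.13, adjusted p = 0.0321), and its 44 bases of overlap are with Kdelr3 (-0.41 ± 0.12, adjusted p = 0.00172, the authors' deposited table). Ddx58, which encodes the RNA sensor RIG-I, was the member of this role with more Pol II in WT villus than under the DKO label (0.30 ± 0.10, adjusted p = 0.00779, the authors' deposited table). Ddx5, a paralog of Ddx17 that acts in splicing and as a coregulator, had means of 268, 342 and 301 and was higher in WT villus than in crypt (0.35 ± 0.13, adjusted p = 0.0273, the authors' deposited table). Cep95, which starts 67 bases from Ddx5 on the other strand, had values of the opposite sign that were not called (-0.23 and -0.20, adjusted p = 0.0542 and 0.0779). Ddx3x, Ddx23, Ddx28 and Ddx41 were called in neither of the authors' deposited tables, with values from -0.39 (Ddx28) to 0.37 (Ddx3x) against crypt. Nol4l, the member outside ribosome assembly, had means of 320.6, 321.3 and 328.8 in the 3 groups and log2 values of 0.00 and -0.03, the flattest of the members with a signal above 300.

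Counted over all members, 12 of 32 were called between WT villus and crypt, 10 higher in crypt and 2 higher in WT villus (Dkc1 and Ddx5). Of all 6429 genes, 37.4% were called in the authors' deposited table, 18.8% higher in crypt and 18.6% higher in WT villus. The share of members called was thus near that of all genes, and the calls toward crypt made up 10 of 12 among members where both directions were about equal over all genes. The median log2 value was -0.18 over the members and -0.04 over all genes. Against labelled-DKO villus, 17 of 32 were called, 13 higher in labelled-DKO and 4 higher in WT villus (Dkc1, Pes1, Nop9 and Ddx58). Of all genes 51.9% were called in the authors' deposited table, 29.5% higher in labelled-DKO and 22.4% higher in WT villus, with medians of -0.17 over the members and -0.08 over all genes, so the share of members called was again near that of all genes. With the median of all genes set to 0, the members' calls were 9 toward crypt and 2 toward WT villus, and 9 toward labelled-DKO and 4 toward WT villus, with medians of -0.14 and -0.08. That is 11 and 13 of 32, beside 35.9% and 48.7% of all genes centred the same way. Sizes were modest: only Ncl passed a log2 difference of 1 in the crypt comparison, and only Dkc1 and Utp14b in the other.

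The 21 members known for ribosome biogenesis gave 8 calls toward crypt and 1 toward WT villus, and 9 toward labelled-DKO and 3 toward WT villus in the authors' deposited tables. These are 42.9% and 57.1% of the 21, beside 37.4% and 51.9% of all genes. Both comparisons share the WT villus libraries, so their values are set side by side and not counted as separate support. Side by side, 9 members were called toward crypt and toward labelled-DKO villus (Ncl, Nop56, Gnl3, Polr1c, Rrp1, Ddx24, Ddx39, Ddx39b and Ddx54), Dkc1 alone toward WT villus in both, and 13 in neither. Joint calls were not counted over all genes, and the shared WT villus libraries favour them, so these counts do not set the members apart. With the median of all genes set to 0, Ddx24, Ddx54 and Rrp1 lost their call toward labelled-DKO villus and Rrp1 also that toward crypt, which leaves 6 of the 9. Ddx17 lost its call toward labelled-DKO villus too. WT villus had the lowest of the 3 rebuilt means in 21 members, the highest in 9, and lay between the others in Nol4l and Nol7. This order was not counted over all genes, and WT villus enters both fold changes. Values were negative in 21 and 23 of the 32 members, beside 3512 and 3660 of all 6429 genes. The 20 enterocyte markers with values were all positive in both comparisons. The 6 proliferation markers with values were all negative, with 5 called in each. Of the 6 stem and progenitor markers with values, 5 and 3 were negative. The 9 members called toward both other groups were picked for negative values, so their sign beside these markers is fixed. Over all 32 members, 11 and 9 values were positive, and a link between members and markers was not tested.

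**Figure D3:**
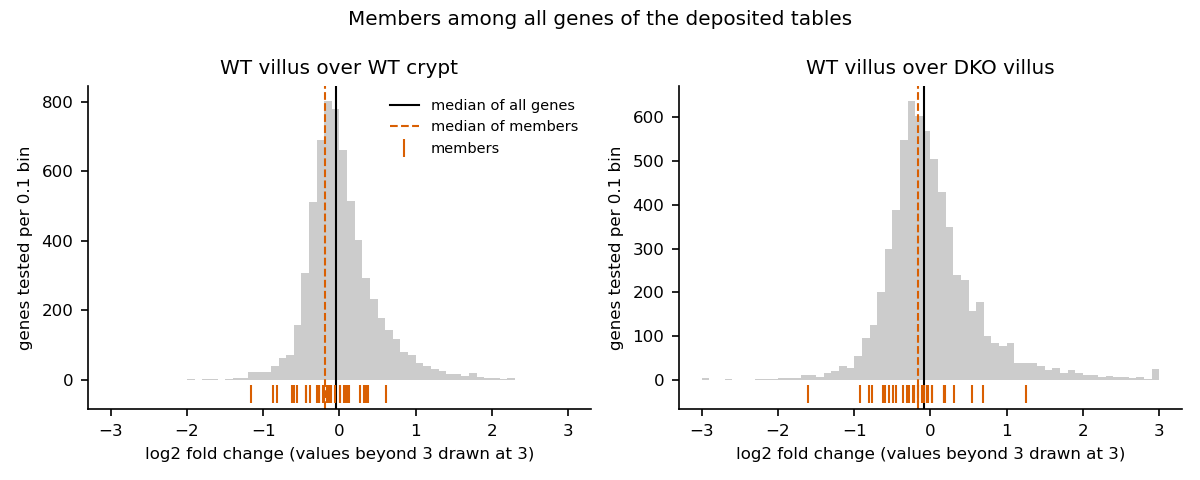
Histograms of the log2 fold changes of all 6429 genes (grey) in the deposited comparisons, with 1 tick per member below and lines at the medians. The members' medians of -0.18 and -0.17 lie left of those of all genes at -0.04 and -0.08, and the ticks at the ends are Ncl (-1.16) and Dkc1 (0.61) on the left, Utp14b (-1.61) and Dkc1 (1.25) on the right.

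Labelled-DKO villus was also set against crypt directly, by the difference of the deposited log2 values. Only 2 of the 32 members were called, Utp14b higher (1.46 ± 0.20, adjusted p = 4.24e-11) and Pes1 lower in labelled-DKO villus (-0.61 ± 0.10, adjusted p = 4.16e-07). Of all genes 13.6% were called, 6.41% toward labelled-DKO villus and 7.19% toward crypt. The medians were -0.05 over the members and 0.0026 over all genes. Of the 9 members called toward both groups, none was called here. Those 9 were picked for negative values in both deposited comparisons, and the value tested here is the difference of the same values. The picking thus favours a small difference, and the error used is the largest that the shared libraries allow. Their lack of a call therefore cannot decide whether labelled-DKO villus and crypt were alike. The intervals of the difference were -0.68 to 0.54 for Nop56, -0.62 to 0.16 for Gnl3 and -0.59 to 0.49 for Polr1c. A p above the threshold does not show that the levels were equal. Dkc1 was lower in labelled-DKO villus by a rebuilt -0.64 ± 0.26, which was not called (adjusted p = 0.0839). With the smaller standard error that a shared fit of 3 libraries per group would give, Dkc1 and Nop2 were called too, 4 members in all, and 28.8% of all genes.

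Genes of the pathway outside the symbol rule were read from 3 lists. Of the polymerase I factors and nucleolar regulators, 9 of 19 had values: 2 were called toward crypt and 1 toward WT villus, and 3 toward labelled-DKO and 3 toward WT villus in the authors' deposited tables. These are 33.3% and 66.7% of the list, beside 37.4% and 51.9% of all genes. Myc, the regulator that drives ribosome production, had means of 89.6 in crypt, 42.8 in WT villus and 68.1 in labelled-DKO villus (-1.06 ± 0.18, adjusted p = 2.93e-08, and -0.67 ± 0.18, adjusted p = 5.36e-04, the authors' deposited tables). Max, its dimerization partner, had means of 244, 414 and 245, highest in WT villus (0.77 ± 0.06, adjusted p = 1.73e-37, and 0.76 ± 0.06, adjusted p = 1.59e-40). Among the polymerase I selectivity factor subunits, Taf1d was lower in WT villus than in both other groups (-0.75 ± 0.20 and -0.62 ± 0.20, adjusted p = 6.85e-04 and 0.0039, the authors' deposited tables). Taf1c was called only in the second table, higher in WT villus (0.77 ± 0.13, adjusted p = 2.27e-08). Both overlap other genes. Mybbp1a, a nucleolar protein that binds MYB, had means of 155, 165 and 105, close in order to Pes1, but unlike Pes1 it overlaps another gene, Spns2. On Mybbp1a WT villus was above labelled-DKO villus (0.65 ± 0.10, adjusted p = 2.34e-09, the authors' deposited table). Labelled-DKO villus lay below crypt by a rebuilt -0.57 ± 0.14 (adjusted p = 0.00155).

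Of the snoRNP and small subunit factors outside the rule, 8 of 38 had values, all 8 negative against crypt, 3 of them called (Tbl3, Dnttip2 and Tsr1). Against labelled-DKO villus 1 was called each way in the authors' deposited table, and the medians were -0.24 and -0.12. The share called was 37.5% against crypt, near the 37.4% of all genes, and 25.0% against labelled-DKO villus, below the 51.9% of all genes. Tbl3, a WD-repeat protein of the processome, had means of 172 in crypt, 117 in WT villus and 68.4 in labelled-DKO villus. It was lower in WT villus than in crypt (-0.55 ± 0.21, adjusted p = 0.0269) and higher than in labelled-DKO villus (0.78 ± 0.21, adjusted p = 9.19e-04, the authors' deposited tables), with labelled-DKO villus below crypt by -1.33 ± 0.30 (adjusted p = 2.37e-04). Dnttip2 was lower in WT villus in both tables (-0.42 ± 0.12, adjusted p = 0.00304, and -0.28 ± 0.12, adjusted p = 0.0418, the authors' deposited tables).

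Of the large subunit and exosome factors outside the rule, 14 of 48 had values. Against crypt 6 were lower in WT villus and 1 higher, and against labelled-DKO villus 5 were lower and none higher, with medians of -0.30 and -0.27 in the authors' deposited tables. That is 50.0% of the list called against crypt, where 37.4% of all genes were, and 35.7% against labelled-DKO villus, below the 51.9% of all genes. Rrs1, which helps bring a ribosomal RNA into the assembling subunit, had means of 54.1, 30.6 and 48.1 (-0.82 ± 0.31, adjusted p = 0.0246, and -0.65, adjusted p = 0.0618, the authors' deposited tables). Ppan had 71.4, 42.6 and 62.3 (-0.75 ± 0.22, adjusted p = 0.00279, and -0.55 ± 0.22, adjusted p = 0.0241). Mak16 had 127, 83.2 and 118 (-0.61 ± 0.11, adjusted p = 8.52e-07, and -0.50 ± 0.11, adjusted p = 3.34e-05). Ftsj3 had 109, 80.4 and 128 (-0.44 ± 0.10, adjusted p = 8.71e-05, and -0.67 ± 0.10, adjusted p = 5.13e-11), and it overlaps Ddx42, as Mak16 overlaps Tti2. Eif6, which keeps the large subunit from joining the small one too early, was the gene called higher in WT villus than in crypt (0.49 ± 0.13, adjusted p = 8.49e-04, the authors' deposited table).

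The product of polymerase I itself is annotated as Rn45s, a window over ribosomal DNA that was picked here after its values were seen. The assay was for Pol II, so the signal on Rn45s does not measure transcription by polymerase I. Its rebuilt means were 3370 in crypt, 3403 in WT villus and 2535 in labelled-DKO villus. It was not called between WT villus and crypt (0.01 ± 0.16, adjusted p = 0.960) and WT villus was above labelled-DKO villus (0.42 ± 0.16, adjusted p = 0.0165, the authors' deposited tables). Ribosomal DNA is present in many copies, and how reads that fit several copies were treated is not given in the sources used here.

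Gene groups near in function were counted the same way. Of 82 ribosomal protein genes, 64 were called toward crypt and none toward WT villus, with a median of -0.73, and 59 toward labelled-DKO and 2 toward WT villus, with a median of -0.61 (the authors' deposited tables). Of 42 mitochondrial ribosomal protein genes, 12 were called toward crypt and 2 toward WT villus, and 11 and 1 in the second table, with medians of -0.29 and -0.17. Of 32 translation factor genes, 15 were called toward crypt and 2 toward WT villus, and 19 and none in the second, with medians of -0.31 and -0.34. Either way, 78.0% and 74.4% of the ribosomal protein genes were called in the 2 tables, 33.3% and 28.6% of the mitochondrial ribosomal protein genes and 53.1% and 59.4% of the translation factor genes. Of all genes 37.4% and 51.9% were called, so by calls either way the mitochondrial group lay below all genes in both. Toward crypt alone, 28.6% of the mitochondrial group were called beside 18.8% of all genes. Toward labelled-DKO villus alone, 26.2% were called beside 29.5%. All genes had medians of -0.04 and -0.08. The medians of the 32 members were -0.18 and -0.17, and the difference between the groups of genes was not tested.

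The members differ in what their windows hold, taken from the authors' windows on mm9. Of the 32, 18 lie on the minus and 14 on the plus strand. They span 1871 to 122511 bases, and 4 of them (Ncl, Gnl3, Nop56 and Nop53) hold 7 snoRNA genes. In 12 members the gene overlaps another, and in 10 a gene on the other strand starts within 1000 bases. The gene body windows differ by strand. On the plus strand they begin 350 bases after the start, and for 3654 of 6482 genes with 1 transcript they were 850 bases shorter than the gene. On the minus strand they begin 350 bases before the start, and for 4784 of 7730 such genes they were 850 bases longer than the gene, so they take in the promoter. For 7 of the 18 minus-strand members they also reach the start of a divergent gene. Which windows underlie the authors' deposited fold changes is not stated, and the part of this difference in the values was not tested.

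Neighbours with values of their own are set beside the members here, and how far signal is shared between them was not tested. For 12 members, 15 neighbours are in the tables, and 12 of the 15 pairs had the same sign in each of the authors' deposited tables. Pairs come from the same libraries and partly the same reads, so this count is a description. Idh3b, the gene of a mitochondrial dehydrogenase subunit that overlaps the end of Nop56 by 5 bases, had values close to it (-0.64 ± 0.15, adjusted p = 9.64e-05, and -0.73 ± 0.14, adjusted p = 1.84e-06, the authors' deposited tables). Yipf3 beside Polr1c, Cep95 beside Ddx5 and Ranbp9 beside Nol7 had values unlike those of the member. Without the 12 overlapping members, 7 of 20 were called against crypt, 6 of them higher in crypt, and 9 of 20 against labelled-DKO villus, 7 of them higher in labelled-DKO villus. Of all genes, overlapping ones included, 37.4% were called against crypt, 18.8% higher in crypt. Against labelled-DKO villus 51.9% of all genes were called, 29.5% higher in labelled-DKO villus. Nop2, Rrp1, Pes1, Ddx24 and Ddx39b overlap no other gene and have no divergent start within 1000 bases. Ncl, Polr1c and Nop16 overlap none either, but divergent genes start 129 (C130036L24Rik), 35 (Yipf3) and 157 bases (Higd2a) away, inside their minus-strand windows.

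**Figure D4:**
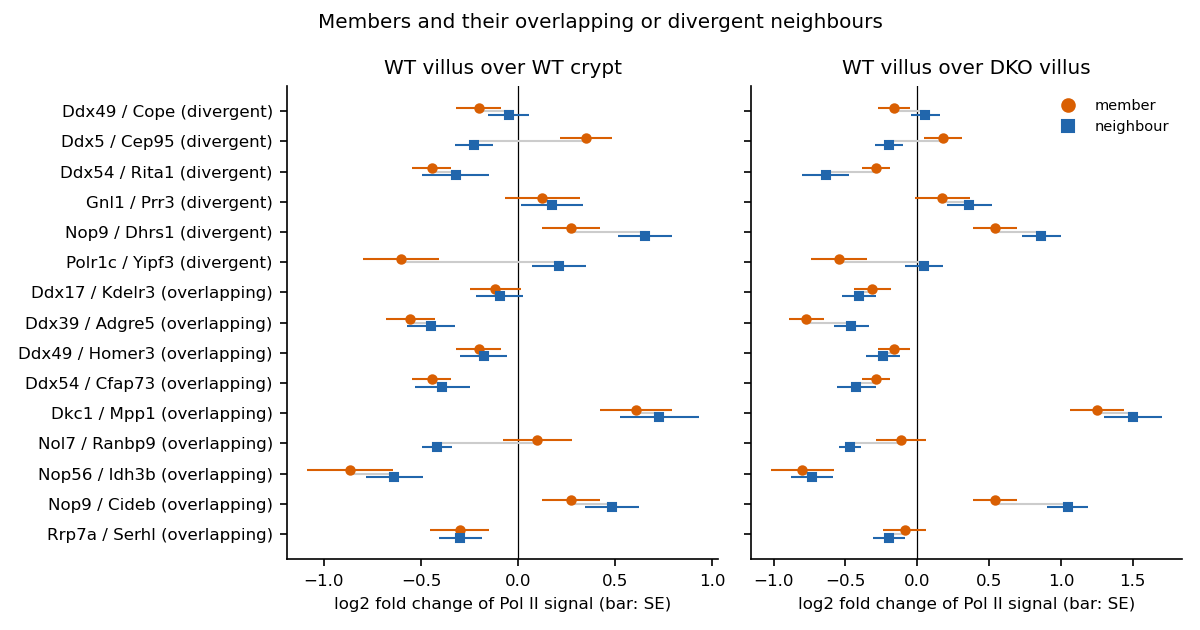
Log2 fold changes of members and of the neighbouring genes that overlap them or start within 1000 bases on the other strand, in the 2 deposited comparisons (15 pairs of 12 members, bars: standard error). Mpp1 with Dkc1 and Idh3b with Nop56 lie close together, and Cep95 with Ddx5 lie on opposite sides of 0.

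**Figure D5:**
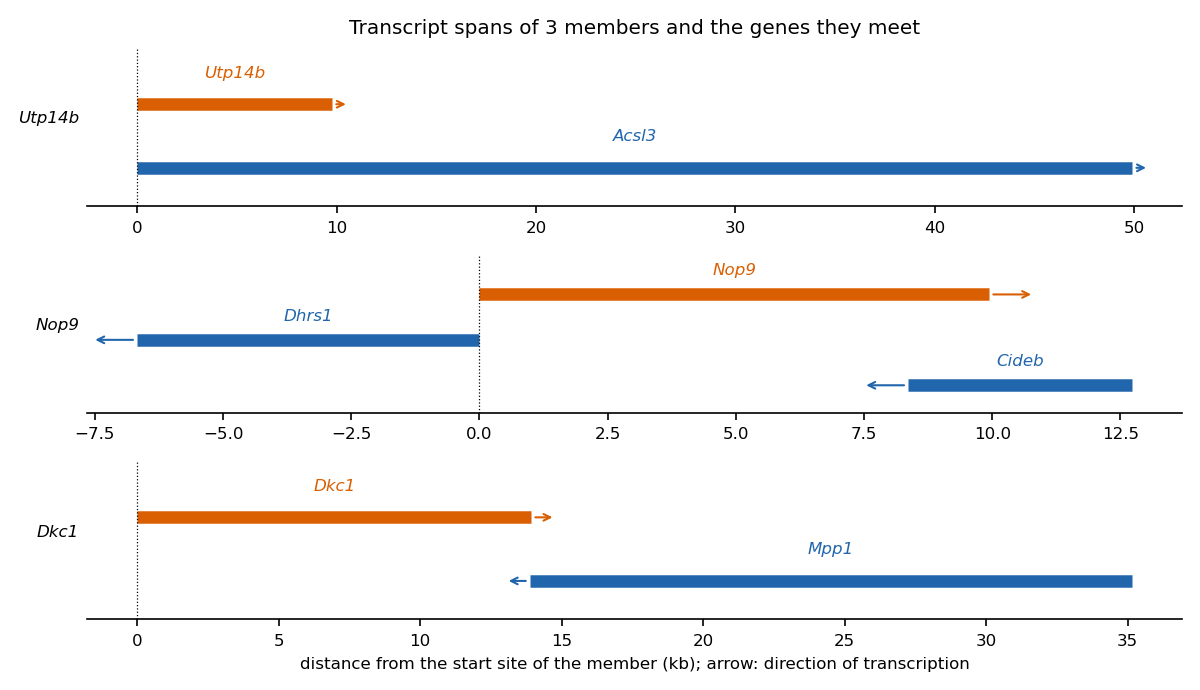
Maps of 3 members (orange) with the genes they meet (blue), drawn to scale by distance in kb from the member's start, with arrows for the direction of transcription. Utp14b lies wholly within the start of Acsl3, Dkc1 and Mpp1 meet end to end, and Nop9 lies between Dhrs1 and Cideb.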

How the data were processed

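Pol II chromatin from mouse duodenal epithelium was sequenced in 9 libraries of 3 groups (WT crypt, WT villus, labelled-DKO villus), with 3 inputs, and samples were grouped by their titles and genotypes. The submitters' processing notes name Bowtie2 2.2.6, DESeq2 1.36.0 and the build mm9, and featureCounts 2.0.3 stands in the file headers, with a mapping quality minimum of 30. All values rest on 2 tables of 6429 genes deposited by the authors. They hold a mean signal deposited as counts divided by size factors, log2 fold changes and standard errors deposited on the log2 scale, a deposited Wald score, and p-values and adjusted p-values deposited by the authors. Whether the fold changes were shrunken and which windows were counted is not given in the sources used here. The deposited count tables were used for window positions only: their 18 columns of library counts carry no names, so no per-library value, depth or count model was analysed.

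Group means were rebuilt assuming equal group sizes. Labelled-DKO villus over crypt is the difference of the log2 values, with the root of the summed squared errors and Benjamini-Hochberg adjustment over all genes. This step was tested on simulated data. Python 3.11.15, pandas 2.3.3 and scipy 1.17.1 were used. Members and gene lists were chosen with earlier results of these data known. All members are named, called or not, and of each pathway list the 3 called genes with the largest change per comparison. Mybbp1a, Eif6, Znrd1 and Rn45s were chosen after their values were seen. Symbols were matched to RefSeq names (GRCm38.p6), and promoters to the same release. Alternatives were stricter thresholds, centring, a signal minimum, fewer members, another error and a shorter promoter.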

Additional observations from a re-analysis of the deposited data

How the results depend on the processing

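The fold changes are as deposited, so only thresholds, centring and the choice of members could be varied. Of the 12 members called between WT villus and crypt, 1 passed a log2 difference of 1 and 7 one of 0.5. Without members that overlap another gene 7 of 20 were called, and without all DEAD-box helicases and Nol4l 7 of 16. Of the 17 called between WT and labelled-DKO villus the same settings gave 2, 10, 9 of 20 and 10 of 16. Beside the counts of 20 and of 16, 37.4% of all genes were called against crypt and 51.9% against labelled-DKO villus. Of the 2 called between labelled-DKO villus and crypt, 1 passed a log2 difference of 1 and 1 remained without overlapping members, Utp14b being left out by construction, and the smaller rebuilt error gave 4. The calls kept under an adjusted p under 0.01 were 10, 13 and 2, and after centring 11, 13 and 2. In the 2 deposited comparisons, 27.0% and 40.9% of all genes were called under 0.01, and 35.9% and 48.7% after centring. Over all genes the counts went from 2403 to 285 and 1172, from 3338 to 559 and 1879 and from 874 to 223 at a log2 of 1 or 0.5, and to 1852 with the smaller rebuilt error. Of 488 recomputed values of single genes, 436 stayed on their side of the threshold, 50 lost and 2 gained a call, and none was reversed. The promoter share with an E-box was 14.3% in the bases before the start alone. No paired analysis was possible because values of named single libraries were not at hand: the tables used give 1 value per comparison. For the same reason leaving out replicates, another normalization and other count models were not run. The number of libraries limits precision to a median error of 0.14 on the log2 scale.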
